A study of Mus musculus with 18 samples.

Results

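Macrophages with a knockout of ribosomal protein L13a and wild type macrophages were compared in their response to interferon (IFN), gene by gene. The quantity described is the difference of responses: the log2 change from untreated to IFN-treated cells in the knockout, less the same change in wild type. A positive value means a higher response in the knockout, which can come from a larger rise, a smaller fall, or opposite directions. The comparison used 12 of the 18 libraries of the series and every gene that passed a filter on low counts, which left 12514 of 21954 genes. The cells were mouse macrophages derived from bone marrow, that is, grown from its precursors in culture, and their poly-A RNA was sequenced. The 4 groups held 3 libraries each: wild type (control in the titles) without treatment (libraries 1, 2 and 3), wild type with IFN (4, 5 and 6), L13a knockout without treatment (1, 2 and 3) and L13a knockout with IFN (4, 5 and 6). The labels call the treatments cytokines for the M1 and M2 types of macrophage, and give neither the type of IFN nor its dose or duration. They also name no Cre driver, allele or mouse strain. Whether the libraries of a group stem from different mice or cultures is not said either, so the p-values measure the spread between libraries, which may be technical. That spread was estimated from all 18 libraries, including those treated with the cytokine IL4.

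Interferons act through cell surface receptors and, inside the cell, through short promoter elements called GAS and ISRE. In macrophages they switch on antigen presentation genes, chemokines and GTPases that attack vacuoles holding microbes. L13a belongs to the large ribosomal subunit, and in myeloid cells under interferon-gamma it can leave the ribosome and join the GAIT complex, which holds back translation of selected inflammatory transcripts. The libraries measured RNA levels and not translation.

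Library totals in the 12 libraries ran from 18098711 to 28477342 expected counts. Macrophage genes were high in all of them: Csf1r, the receptor for the macrophage growth factor, stood between 3022 and 4188 CPM (read counts scaled to library size, with TMM factors), and Adgre1, the F4/80 antigen, between 1262 and 2866 CPM. Lyz2, the lysozyme of myeloid cells, stood between 2881 and 12110 CPM in wild type but between 1.19 and 5.78 CPM in the knockout. Fibroblast marker transcripts, 14 of 16 of which passed the filter, summed to between 866 and 922 CPM in untreated wild type libraries and to between 95.1 and 204 CPM in those with IFN. In the knockout they summed to between 110.7 and 417 CPM without treatment and to between 44.3 and 804 CPM with IFN, and at most 3 of the 16 had no count in any 1 library. Markers of T and NK cells summed to at most 4.62 CPM (5 of 15 passed), those of B cells to between 34.2 and 122 CPM (4 of 9) and those of neutrophils to between 10.4 and 105 CPM (3 of 13). Transcripts of Y-linked genes were present in wild type untreated 1 and IFN 4 and 5, at 175, 141 and 113 CPM, and reached at most 0.156 CPM in the other 9 libraries. Wild type untreated 2 and 3 were much closer to each other (chi-square per degree of freedom 6.01) than the other pairs within groups (53.7 to 185).

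The targeted gene, Rpl13a (ENSMUSG00000074129, chromosome 7, 45125558 to 45128761, minus strand), stood at 618, 745 and 746 CPM in wild type untreated libraries 1, 2 and 3 and at 437, 552 and 618 CPM in wild type IFN libraries 4, 5 and 6. Knockout libraries held 156, 201 and 400.5 CPM without treatment and 248, 189 and 425 CPM with IFN. Every knockout library was below every wild type library, and no library was without the transcript. The response to IFN was not called in wild type (log2 -0.39, adjusted p = 0.544) or in the knockout (log2 0.18, adjusted p = 0.796), and the difference of responses was 0.57 (SE 0.545, adjusted p = 1).

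No gene was called for the difference of responses at an adjusted p under 0.05 by edgeR's quasi-likelihood test, 0 of 12514 (0%), and the lowest adjusted p was 0.116. In the same test on the 12 untreated and IFN libraries alone the lowest adjusted p was 0.834, again with no gene called. At an unadjusted p under 0.05 there were 617 genes (4.93%), of which 427 had a higher response in the knockout (3.41%) and 190 a lower one (1.52%). DESeq2 called 20 genes on the same counts, all 20 with the higher response in the knockout, and 11 of them were transcripts of cytosolic ribosomal proteins. Without wild type IFN library 6 edgeR called 9, again all higher in the knockout. On the deposited TPM scale, where the median of all genes was -0.24 in place of -0.01, no gene was called by limma, and the genes at an unadjusted p under 0.05 split into 181 higher and 1086 lower. The median standard error of the difference was 0.336 and the median half-width of its 95% interval 0.714 on the log2 scale. In simulated data for this comparison 1.493% of genes changed 1.5-fold, 7.463% of those changed 2-fold and 69.7% of those changed 4-fold were recovered.

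Most of the IFN response was shared between the genotypes, and the 2 responses have no library in common. In wild type 1387 genes rose (11.1%) and 945 fell (7.55%), and in the knockout 1579 rose (12.6%) and 1118 fell (8.93%). Of these 1733 were called in both, which is 74.3% of the wild type calls and 64.3% of the knockout calls, and 1730 of the 1733 moved the same way. Another 599 genes were called in wild type alone and 964 in the knockout alone. None of these was called for the difference itself, so they were not shown to respond differently. An unadjusted p under 0.05 for it was found in 106 and 201 of them, against 4.93% of all genes. Choosing genes called in 1 genotype alone raises such counts by itself. Over the 12514 genes, which are not independent replicates, the 2 responses correlated at r = 0.777. On the deposited TPM scale the balance of directions moved, with 1047 genes higher and 1050 lower in wild type and 866 higher and 3159 lower in the knockout.

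**Figure D1:**
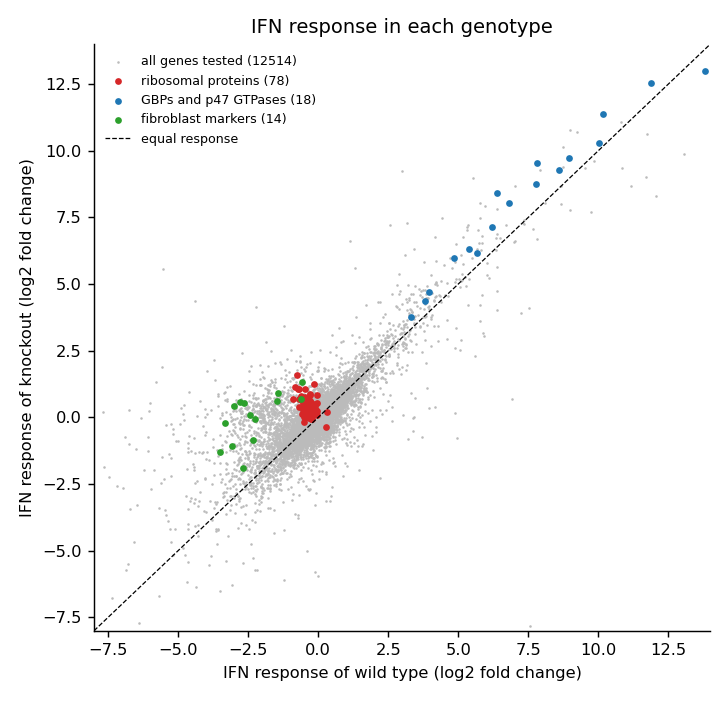
Each point is 1 gene, with its log2 change after IFN in wild type on the x axis and in the knockout on the y axis; the dashed line marks equal responses, and 6 genes lie outside the axes. Of the coloured groups, 76 of 78 ribosomal protein transcripts, 17 of 18 guanylate binding protein and p47 GTPase genes and all 14 fibroblast markers lie above the line. The 2 GTPase genes Gbp2b and Gbp10 had at most 3 counts in an untreated group, so their positions depend on the fit.

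The genes with the lowest p were mostly small, abundant transcripts of the ribosome. A set of 20 was taken by p among genes that reached 5 CPM on average in at least 1 group, leaving out predicted genes and pseudogenes, of which Gm2000 had the second lowest p of all. All 20 had a positive difference, 11 encode cytosolic ribosomal proteins, and 19 have transcripts under 1000 bases. Because the set was chosen by the p of the difference, the separations between groups given next follow in part from that choice. Their shares over all genes were not counted. In 19 of the 20 every knockout untreated library was below every wild type untreated library. Every knockout IFN library was above every knockout untreated library in 17 of them, while wild type IFN libraries were all below the untreated ones in 5. After IFN the genotypes overlapped in 14 of the 20, and none of the 20 was among the 8 genes called between genotypes at that stage (0.0639%).

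Transcripts of ribosomal protein genes are known to begin with a run of pyrimidines, C or T in DNA, at the start of transcription, through which growth signals and the RNA-binding protein LARP1 act on their translation and stability. The starts of 7 ribosomal protein genes among the 20, and of Supt4a, are shown because they hold both long and short runs. Each line gives 10 bases before the RefSeq start and 20 from it on (GRCm38.p6, coding strand, 5′ to 3′), and capitals mark the longest run of C and T that touches the 5 bases on either side of the start.
Rps27: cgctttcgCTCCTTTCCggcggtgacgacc
Rps21: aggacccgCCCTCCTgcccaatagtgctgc
Rpl38: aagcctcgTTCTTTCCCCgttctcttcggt
Fau: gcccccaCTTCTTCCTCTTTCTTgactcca
Rpl39: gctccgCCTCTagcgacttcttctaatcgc
Rpl26: ggcaaCTTacagaaccggaagtcgcgtgta
Rps25: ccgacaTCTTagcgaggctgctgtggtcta
Supt4a: gggtaatggTCTgtttacttcctgcggctg
In order, these windows lie at chr3:90213629-90213658, minus strand; chr2:180257369-180257398, plus strand; chr11:114668570-114668599, plus strand; chr19:6057937-6057966, plus strand; chrX:37085203-37085232, minus strand; chr11:68901556-68901585, plus strand; chr9:44407704-44407733, plus strand; and chr11:87737541-87737570, plus strand. The run measured 16 bases in Fau, 10 in Rpl38, 9 in Rps27 and 7 in Rps21, but 5 in Rpl39, 4 in Rps25 and 3 in both Rpl26 and Supt4a. A run of at least 8 bases was found in 23 of the 57 ribosomal protein genes matched by symbol (40.4%), against 11.4% of all 27025 genes with a RefSeq promoter. The median difference of responses was 0.69 in the 23 genes with such a run and 0.64 in the 34 without, and 13 and 17 of them had an unadjusted p under 0.05. A window that lacks the run says only that these letters are not at the annotated start.

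Rps27, a protein of the small subunit with a run of 9 pyrimidines at its start, had the lowest p of all genes (ENSMUSG00000090733, chromosome 3, 90212522 to 90213651, minus strand). Its level was 226, 299 and 373 CPM in wild type untreated libraries 1 to 3 and 133, 127 and 279 CPM in wild type IFN libraries 4 to 6. Knockout libraries held 126, 94.5 and 104 CPM untreated and 409, 252 and 312 CPM with IFN. The untreated groups did not overlap, nor did the knockout with and without IFN, but wild type IFN 6 lay among the knockout IFN libraries. Rps27 rose in the knockout (log2 1.58, adjusted p = 0.00056) and stood at log2 -0.74 in wild type (adjusted p = 0.0678). The difference of responses was 2.32 (SE 0.381, 95% interval 1.51 to 3.13, adjusted p = 0.116). DESeq2 called it (adjusted p = 2.13e-05), and so did edgeR without wild type IFN 6 (difference 2.78, adjusted p = 0.00205).

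Rps21, also of the small subunit, moved in opposite directions with both responses called. It was at 246, 339 and 373 CPM in wild type untreated libraries and 128, 139 and 277 CPM in those with IFN. The knockout held 140.3, 112 and 145 CPM untreated and 394, 201 and 285 CPM with IFN. It fell in wild type (log2 -0.82, adjusted p = 0.0493), although library 6 lay within the untreated range, and it rose in the knockout (log2 1.15, adjusted p = 0.00693). The difference was 1.97 (SE 0.39, adjusted p = 0.391).

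Rpl39, a short protein of the large subunit near the exit of the peptide tunnel, had the second lowest p of the named genes. Its levels were 122, 184 and 203 CPM in wild type untreated and 87.2, 80.5 and 148 CPM in wild type IFN libraries. Knockout libraries stood at 72.2, 60.5 and 81.9 CPM untreated and 178, 106 and 171 CPM with IFN. As with Rps27, the knockout groups did not overlap, and wild type IFN 6 was the highest of its group. Rpl39 rose in the knockout (log2 1.08, adjusted p = 0.0047), with a difference of 1.77 (SE 0.346, adjusted p = 0.391).

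Rpl38, a large subunit protein known for its part in translating Hox transcripts, stood at 102, 159.6 and 157 CPM in untreated and 60.9, 69.4 and 127 CPM in IFN-treated wild type libraries. In the knockout the levels were 56.8, 56.9 and 78.4 CPM and 164, 97.6 and 142 CPM. Its difference was 1.77 (SE 0.397). Fau, which encodes the small subunit protein S30 fused to a ubiquitin-like domain, went from 62.4, 71.4 and 80.5 CPM in untreated to 171, 114 and 158 CPM in IFN-treated knockout libraries. In wild type it went from 126, 168 and 152 CPM to 65.7, 89.5 and 164 CPM, where library 6 stood apart from 4 and 5. The difference for Fau was 1.53 (SE 0.362). Both rose in the knockout, with adjusted p = 0.0124 for Rpl38 and 0.00784 for Fau, and neither was called in wild type.

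Rpl26, which binds the p53 transcript as well as the large subunit, was the only 1 of the 11 called between untreated genotypes (log2 -0.97, adjusted p = 0.034), where 10 genes were called in all (0.0799%). It was at 549, 675 and 694 CPM in untreated wild type against 314, 274 and 388 CPM in the untreated knockout. With IFN it was at 451, 436 and 558 CPM against 592, 427 and 566 CPM, where the genotypes overlapped. Its difference of responses was 1.11 (SE 0.232, adjusted p = 0.391). The remaining 5, Rpl34 (1.40), Rps14 (1.38), Rpl17 (1.24), Rpl30 (1.06) and Rps25 (1.06), had differences with an adjusted p of 0.428, and each rose in the knockout. Many ribosomal protein genes have processed pseudogenes with near-identical sequence, between which the authors' counting could split reads, so single values carry that uncertainty.

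**Figure D2:**
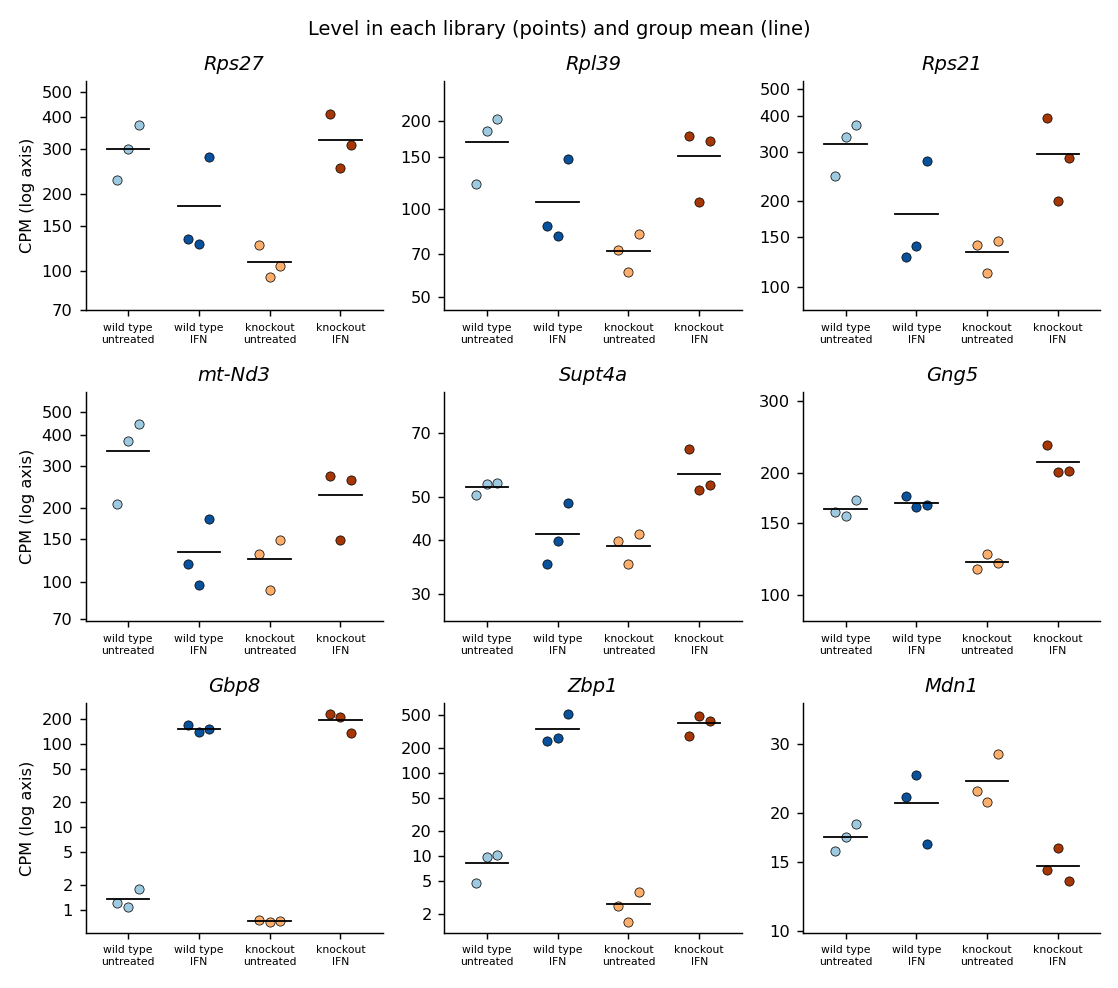
Level in CPM on a log axis for 9 genes, with 1 point per library in order of its number within each of the 4 groups and a line at the group mean. In Rps27, Rpl39 and Rps21 the untreated knockout is the lowest group and wild type IFN 6 stands above IFN 4 and 5, while Mdn1 runs the other way.

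The other 9 of the 20 include genes with small spread. Gng5, a gamma subunit of G proteins, was at 159.7, 156 and 172 CPM in untreated and 175, 165 and 167 CPM in IFN-treated wild type libraries. The knockout stood at 116, 126 and 119.6 CPM untreated and 234, 200.1 and 202 CPM with IFN. In the knockout it was the lowest of all groups before treatment and the highest after it, with no overlap with wild type at either stage. Gng5 rose in the knockout (log2 0.81, adjusted p = 0.000166) and was near 0 in wild type (log2 0.05), a difference of 0.76 (SE 0.172, adjusted p = 0.428).

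Supt4a, a subunit of the elongation factor DSIF, went from 50.6, 53.4 and 53.9 to 35.1, 39.7 and 48.5 CPM in wild type and from 39.7, 35.1 and 41.2 to 64.2, 51.8 and 53.4 CPM in the knockout. It and Anapc13, a subunit of the anaphase promoting complex, were the 2 of the 20 in which IFN libraries lay wholly below untreated ones in wild type and wholly above them in the knockout. Their differences were 0.90 (SE 0.183) and 1.2 (SE 0.273). Anapc13 fell in wild type (adjusted p = 0.0385) and rose in the knockout (adjusted p = 0.0371).

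Gng10, another G protein gamma subunit, fell in wild type (log2 -0.93, adjusted p = 0.000953) and stood at log2 0.09 in the knockout (adjusted p = 0.761). Its levels were 45.5, 54.3 and 53.2 CPM and 24.6, 30.3 and 25.2 CPM in wild type without and with IFN, and 44.1, 32.8 and 50.3 CPM and 51.4, 36.6 and 47.9 CPM in the knockout. The wild type IFN libraries were below all the others. mt-Nd3, a complex I subunit encoded by mitochondrial DNA, also fell in wild type, from 209, 379 and 446 to 119, 96.8 and 180.3 CPM (adjusted p = 0.00781). Knockout levels went from 130.5, 92.5 and 149 to 272, 149 and 262 CPM, a response that was not called (adjusted p = 0.073). Its difference was 2.26 (SE 0.47).

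Ptpn18, a tyrosine phosphatase, rose in the knockout from 51.2, 41.4 and 46.5 to 134, 102 and 117 CPM (log2 1.34, adjusted p = 7.6e-05). In wild type it was at 68.2, 69.2 and 71 and then 61.3, 70.7 and 114 CPM, where library 6 stood well above 4 and 5. The difference was 1.10, and 1.41 without wild type IFN 6, at which edgeR called it (adjusted p = 0.0091). Hspb11 (1.07), a part of the ciliary transport complex, Dpm3 (1.39), a subunit of the dolichol phosphate mannose synthase, and Tmem256 (1.38) make up the remainder. Each rose in the knockout and was not called in wild type.

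Described as a whole, the 78 cytosolic ribosomal protein transcripts other than Rpl13a had a median difference of 0.73, against -0.01 for all genes tested. None was called, 44 had an unadjusted p under 0.05 with a higher response in the knockout (56.4%, against 3.41% of all genes) and none with a lower one. The value was above 0 in 76, the exceptions being Rpl10 (-0.67) and Rpl27 (-0.09). In wild type the response was below 0 in 76 of the 78 (median -0.35), with 1 called as fallen (against 7.55% of all genes). In the knockout it was above 0 in 73 (median 0.39), with 20 called as risen (against 12.6%). Between untreated genotypes 77 were below 0 (median -0.74), while after IFN 40 of the 78 were (median -0.00). The 32 tested Rps transcripts of the small subunit had a median of 0.82 and the 44 Rpl transcripts of the large subunit one of 0.62.

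Summed over the 78, the level was 36320, 46090 and 46420 CPM in wild type untreated and 29150, 33670 and 39500 CPM in wild type IFN libraries. In the knockout it was 23620, 23330 and 34090 CPM untreated and 38670, 26570 and 37840 CPM with IFN. The libraries moved as blocks: wild type IFN 6 was the highest of its group in 68 of the 78 genes, knockout untreated 3 the highest in 77 and knockout IFN 5 the lowest in 76. The list's members are therefore not independent of each other, and their number adds little to what 12 libraries show. Leaving out each library in turn kept the median between 0.60 (without knockout untreated 2) and 0.93 (without knockout untreated 3).

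Transcripts for oxidative phosphorylation encoded in the nucleus are many of them as short as those of the ribosome. Of 74 tested, 20 had an unadjusted p under 0.05 with a higher response in the knockout (27%, against 3.41% of all genes) and none with a lower one. The median difference was 0.42, but 0.225 without wild type IFN 4 and 0.163 in a fit of the 13 of all 18 libraries without Y-linked transcripts. That fit, also quoted below, holds 1 wild type IFN library, number 6. Here both responses were on average above 0, with medians of 0.19 in wild type and 0.71 in the knockout, and 36 of the 74 rose in the knockout (against 12.6% of all genes). In wild type 6 rose, a share below the 11.1% of all genes. Cox6c, a subunit of cytochrome c oxidase, was at 97, 133 and 136 and, with IFN, 82.9, 96.1 and 150.4 CPM in wild type. It rose in the knockout from 63.1, 68.4 and 91.8 to 172, 136 and 162 CPM (adjusted p = 0.00228), with a difference of 1.22 (SE 0.309, adjusted p = 0.513). Ndufa7 of complex I (1.04) and Cox7c (1.14) likewise rose in the knockout and were not called in wild type. The 55 members with transcripts up to 1000 bases had a median of 0.50 and the 19 longer ones a median of 0.23.

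The 13 proteins encoded by mitochondrial DNA, a list added after seeing the data, had a median of 0.55, and 3 had an unadjusted p under 0.05 on the higher side (23.1%, against 3.41% of all genes). That median was 0.269 without wild type IFN 6, 0.298 without knockout IFN 4, 0.978 without wild type IFN 4 and 1.34 in the 13 libraries without Y-linked transcripts. Mitochondrial ribosomal proteins, made from nuclear genes, had a median of 0.18 over 44, with 4 at an unadjusted p under 0.05 on the higher side (9.09%, against 3.41%), and it ran from 0.0559 without wild type IFN 4 to 0.322 without wild type IFN 6. Among 28 translation factors 5 were at an unadjusted p under 0.05 on the higher side (17.9%, against 3.41%) and 2 on the lower (7.14%, against 1.52%). Tpt1, a transcript of the same pyrimidine-start class, was at 2116, 2350 and 2459 and 1760, 1547 and 1779 CPM in wild type and at 1497, 1166 and 1493 and 1966, 1422 and 1553 CPM in the knockout, a difference of 0.69. Eif3e, a subunit of initiation factor 3, was at 0.50, whereas the initiation scaffold Eif4g1 was at -0.44 and fell in the knockout (log2 -0.40, adjusted p = 0.0165).

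Factors that assemble ribosomes lay on the other side. Of 41 tested, 6 had an unadjusted p under 0.05 with a lower response in the knockout (14.6%, against 1.52% of all genes) and none with a higher one, and the median was -0.18. It was -0.0476 without knockout untreated 3 and -0.0777 in the 13 libraries without Y-linked transcripts. Heatr1, which acts in processing the precursor of small subunit RNA, rose in wild type from 35.9, 33.6 and 29.8 to 60.6, 50.7 and 45 CPM (adjusted p = 0.00147). The knockout held 37.1, 39.5 and 43.4 and 42.6, 42.8 and 42.4 CPM, with no overlap between the genotypes' IFN libraries. Its difference was -0.57 (SE 0.177). Nop14 (-0.48) rose in wild type alone and Nolc1 (-0.68) fell in the knockout alone, and for neither was the difference called (adjusted p = 0.767 and 0.775). On log2 of the deposited TPM plus 0.1 the median of all genes was itself -0.28, and that of these factors -0.43.

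The induced GTPases responded strongly in both genotypes. All 18 tested guanylate binding proteins and p47 GTPases rose in wild type (against 11.1% of all genes) and in the knockout (against 12.6%). Their summed level went from 166, 246 and 259.8 CPM to 18750, 17540 and 21760 CPM in wild type. In the knockout it went from 137, 160.2 and 156 CPM to 20880, 24960 and 20180 CPM. The knockout was thus lower in every library before treatment and overlapped wild type after it. The difference of responses was above 0 in 17 of the 18 (median 0.74), and 9 had an unadjusted p under 0.05 on the higher side (50%, against 3.41%). Over the 16 members with more than 3 counts in both untreated groups the median was 0.85.

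The promoters of 5 of these genes are shown because they hold matches to an interferon element, 3 of them to ISRE alone, Gbp5 to GAS in the bases shown, and Tgtp2 to both. Each line gives the 100 bases before the RefSeq start (GRCm38.p6, coding strand, 5′ to 3′). Capitals mark matches on either strand to the ISRE pattern TTTCNNTTTC or to the GAS pattern TTCNNNGAA, where N is any base, and overlapping matches run together.
Gbp2: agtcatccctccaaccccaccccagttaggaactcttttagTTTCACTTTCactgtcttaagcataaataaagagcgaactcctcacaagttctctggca
Gbp3: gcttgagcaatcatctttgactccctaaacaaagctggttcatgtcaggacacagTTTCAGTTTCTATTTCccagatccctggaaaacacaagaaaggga
Gbp5: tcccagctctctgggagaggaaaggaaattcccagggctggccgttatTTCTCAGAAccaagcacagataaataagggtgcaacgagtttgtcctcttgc
Irgm1: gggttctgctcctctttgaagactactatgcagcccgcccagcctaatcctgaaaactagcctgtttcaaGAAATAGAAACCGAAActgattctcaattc
Tgtp2: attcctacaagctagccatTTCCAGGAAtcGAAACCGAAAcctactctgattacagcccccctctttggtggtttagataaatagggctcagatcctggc
In order, they lie at chr3:142620563-142620662, plus strand; chr3:142559944-142560043, plus strand; chr3:142496834-142496933, plus strand; chr11:48871421-48871520, minus strand; and chr11:49064213-49064312, minus strand. Gbp2 holds an ISRE match that begins 59 bases before the start, and Gbp3 a pair that overlap and begin 45 and 39 bases before it. In Irgm1 a pair begins 30 and 24 bases before the start. Tgtp2 holds a GAS match 81 bases before the start and an ISRE match 70 bases before it, and Gbp5 a GAS match at 52 with 2 more matches outside the bases shown. In windows of 300 bases around the start, ISRE was found in 10 of the 11 members of the group matched by symbol (90.9%) and GAS in 6 (54.5%), against 3.99% and 9.55% of all 27025 genes. These are matches of letters, not sites shown to be bound. Among all tested genes with a promoter, the 1154 with either element had a median difference of 0.04 and the 8513 without one of -0.02. An unadjusted p under 0.05 on the higher side was found in 54 and 260 of them, against 427 of all 12514 genes (3.41%). Among interferon-gamma response genes, some of them GTPases of this group, the median was 0.53 in the 13 with an element and 0.27 in the 13 without, with 5 and 0 at such a p. Among type I interferon response genes it ran the other way, at 0.62 in the 20 with an element and 0.81 in the 13 without. Neither part of that list had a member at such a p. These splits were not tested.

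Gbp8, a guanylate binding protein, had the lowest p of the group. It went from 1.22, 1.06 and 1.8 to 172, 138 and 152 CPM in wild type and from 0.749, 0.715 and 0.725 to 231, 212 and 138 CPM in the knockout. The untreated groups did not overlap, and knockout IFN 6 fell just below the wild type libraries where 4 and 5 lay above them. The difference was 1.24 (SE 0.355, 95% interval 0.48 to 1.99, adjusted p = 0.663). Tgtp2, a p47 GTPase with both elements in its promoter and with a near-identical neighbour Tgtp1 that could share its reads, was at 3.15, 8.3 and 8.24 and 1.46, 1.43 and 3.26 CPM in untreated wild type and knockout. With IFN it reached 1362, 1365 and 1644 and 1489, 1749 and 1450 CPM, where the genotypes overlapped, and its difference was 1.72 (SE 0.582).

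Irgm1, a regulator of the other p47 GTPases, was more abundant at rest. It stood at 50.1, 76 and 84.8 CPM in untreated wild type and 42.8, 49.8 and 46.4 CPM in the untreated knockout, and with IFN at 996, 1023 and 1263 and 1068, 1363 and 1154 CPM. Its difference was 0.73 (SE 0.317). Gbp3 (0.95) and Gbp5 (0.98) were likewise lower in every untreated knockout library than in wild type and overlapped after IFN. Gbp2, the most abundant of those named, reached 7992, 7353 and 8980 CPM in wild type and 8892, 9822 and 8425 CPM in the knockout with IFN, a difference of 0.75 (SE 0.555). Wild type untreated 1 was the lowest untreated wild type library for Gbp2, Gbp3, Tgtp2 and Irgm1.

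Type I interferon response genes, which are antiviral effectors driven largely through ISRE, had a positive difference in all 42 tested, with a median of 0.69. A single member, Zbp1, had an unadjusted p under 0.05 (2.38%, against 3.41% of all genes), so that share is no higher than the background. IFN raised 35 of the 42 in wild type (against 11.1% of all genes) and 40 in the knockout (against 12.6%). The summed level was 1674, 2729 and 2765 CPM in wild type untreated and 9958, 9639 and 21280 CPM in wild type IFN libraries. In the knockout it was 1571, 1744 and 1789 CPM untreated and 9652, 21470 and 14290 CPM with IFN. Libraries of the same group thus differed by more than 2-fold after IFN, with wild type IFN 6 the highest of its group in 38 genes, knockout IFN 5 the highest in 39 and wild type untreated 1 the lowest in 39. The median moved to 1.36 without wild type IFN 6, to 0.27 without knockout IFN 5 and to 0.20 in the 13 libraries without Y-linked transcripts.

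Zbp1, a sensor of Z-form nucleic acid that can start cell death, was at 4.72, 9.76 and 10.4 CPM in untreated wild type and 2.52, 1.62 and 3.73 CPM in the untreated knockout. With IFN it reached 243, 262 and 510 CPM and 278, 488 and 421 CPM. The untreated groups did not overlap and the IFN groups did. The difference was 1.83 (SE 0.585, adjusted p = 0.775). Oasl2, an oligoadenylate synthase-like protein, was at 51.3, 124 and 129 CPM in wild type and 35.8, 39.2 and 52.6 CPM in the knockout before treatment, where knockout 3 lay just above wild type 1. With IFN it was at 450.3, 338 and 809.7 and 383, 858 and 642 CPM, a difference of 1.49 (SE 0.722). Ifit1, which binds foreign 5′ RNA ends, was at 122, 157 and 466 CPM in wild type IFN libraries and at 122, 586 and 272 CPM in the knockout ones, so that each group spread over most of the range of the other (difference 1.25, SE 0.955).

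Interferon-gamma response genes share 6 members with the GTPases above. All 37 rose in both genotypes, against 11.1% of all genes in wild type and 12.6% in the knockout. Their median difference was 0.27, with 30 above 0, 5 at an unadjusted p under 0.05 on the higher side (13.5%, against 3.41% of all genes) and 1 on the lower (2.7%, against 1.52%). The median was 0.159 without wild type IFN 5, 0.431 without knockout untreated 3 and 0.584 without wild type IFN 6. In the 13 libraries without Y-linked transcripts, which hold wild type IFN 6 as the only wild type IFN library, the median was -0.09. Irf1, a transcription factor induced early by interferon, went from 44.7, 31.3 and 33 to 705, 713 and 831 CPM in wild type and from 45.5, 32.3 and 32.1 to 951, 856 and 762 CPM in the knockout. Its difference was 0.18 (95% interval -0.81 to 1.18), a value that turned to -0.18 on the TPM scale.

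The chemokine Cxcl9 was almost absent before treatment and reached 678, 339.8 and 2380 CPM in wild type and 792, 1939 and 1631 CPM in the knockout. Wild type IFN 6 held the highest of these values and IFN 5 the lowest, so the range of the wild type group contained all 3 knockout libraries. Cxcl10 varied in the same way (609.5, 396 and 1727 against 531, 1512 and 1321 CPM; difference 0.53, SE 1.01). Il12rb1, a receptor chain for interleukin-12, was the member on the lower side. It rose from at most 0.659 CPM in any untreated library to 94.2, 109 and 95.1 CPM in wild type and 85.1, 89.8 and 65.1 CPM in the knockout, with a difference of -2.07 (SE 0.787). That value rests on untreated levels of a few counts.

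Antigen presentation genes rose in both genotypes. All 23 tested genes of MHC class I presentation rose in both (against 11.1% of all genes in wild type and 12.6% in the knockout). Their median difference was 0.40, with 1 at an unadjusted p under 0.05 (4.35%, against 3.41% on the higher side over all genes). The median ran from 0.232 without wild type IFN 5 to 0.645 without wild type IFN 6. In the libraries without Y-linked transcripts their median was -0.07. B2m, the shared light chain of class I molecules, went from 1546, 1682 and 1755 to 4986, 5322 and 8858 CPM in wild type and from 1847, 1752 and 1296 to 8390, 9891 and 7802 CPM in the knockout, a difference of 0.47 (95% interval -0.25 to 1.19). Psme1, a proteasome activator induced by interferon, had a difference of 0.58 (SE 0.256), and Psmb9 of the immunoproteasome one of 0.52 (SE 0.263).

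Of 15 class II genes 11 rose in wild type (against 11.1% of all genes) and 12 in the knockout (against 12.6%). Their median difference was 0.03 (-0.12 without knockout untreated 3, 0.375 without knockout untreated 1), with none at an unadjusted p under 0.05. Ciita, the master regulator of class II genes, reached 249, 168 and 188 CPM in wild type and 208, 169.8 and 194 CPM in the knockout with IFN (difference 0.02, 95% interval -1.35 to 1.39). H2-Aa, a class II chain, reached 1371, 1231 and 2172 and 2448, 1788 and 1996 CPM (difference -0.06, 95% interval -1.45 to 1.33). Both intervals still allow differences of more than 2-fold in either direction. Ctsh, a cathepsin of the endosome, rose in both genotypes with a difference of 0.75 (SE 0.303).

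**Figure D3:**
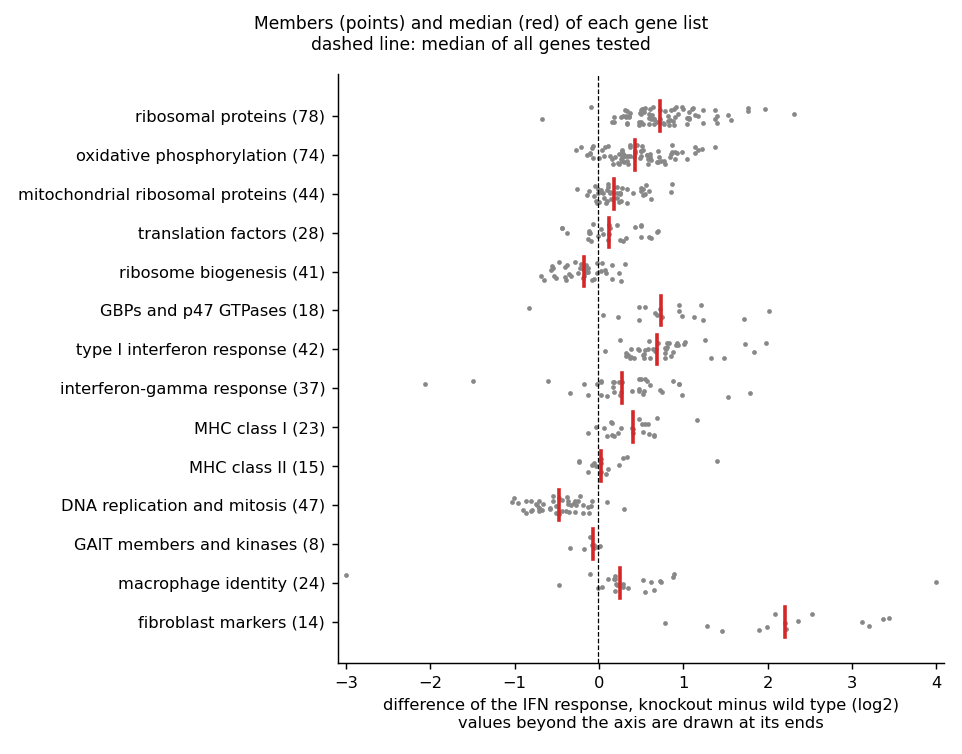
The x axis gives the log2 difference of responses, with 1 grey point per gene, a red line at the list's median and the number tested in brackets; the dashed line is the median of all genes. Fibroblast markers (2.21) lie farthest to the right. Ribosomal proteins (0.73), oxidative phosphorylation (0.42), the GTPases (0.74), type I genes (0.69) and MHC class I (0.40) also lie to the right. Ribosome biogenesis (-0.18) and DNA replication and mitosis (-0.48) lie to the left.

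Genes of the GAIT complex and its kinases had a median difference of responses near that of all genes, although most lay below 0. The 8 tested had a median difference of -0.07 and none at an unadjusted p under 0.05. The difference was above 0 in 1 of the 8, against 6041 of all 12514 genes. Their summed level, in which abundant members weigh most, averaged 2250 CPM in untreated and 3330 CPM in IFN-treated wild type libraries, and 2350 and 3320 CPM in the knockout. No member was called as risen in either genotype, and median responses were 0.05 in wild type and -0.04 in the knockout. In each genotype 1 of the 8 fell (against 7.55% of all genes in wild type and 8.93% in the knockout). Eprs, the tRNA synthetase that recruits L13a to the complex, was at 78.7, 104 and 107 and 124, 129 and 107 CPM in wild type and 84.8, 105 and 109.5 and 77.2, 109 and 108 CPM in the knockout (difference -0.35, SE 0.24). The 6 tested transcripts studied as targets of the complex had a median of -0.04 and none at an unadjusted p under 0.05.

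Genes of DNA replication and mitosis had a median difference of -0.48 over 47, with 45 below 0, but a single member had an unadjusted p under 0.05 (2.13%, against 1.52%). E2f1, a factor that starts the replication program, was that member. It was at 60.4, 57.9 and 55.4 and 52.2, 69.6 and 58.5 CPM in wild type and at 54.5, 57.1 and 68.7 and 41.7, 36.4 and 46.8 CPM in the knockout, where it fell (adjusted p = 0.0348), a difference of -0.58 (SE 0.238). Mcm2, a subunit of the replicative helicase, had a difference of -1.04 (SE 0.575). Its knockout libraries held 27.9, 50 and 85 CPM untreated and 22.5, 23.9 and 51.5 CPM with IFN, a spread of over 2-fold within each group. Knockout untreated 3 was the highest of its group in 47 of the 47 genes and knockout IFN 6 in 45. The median was 0.05 without knockout untreated 3 and -1.08 without knockout IFN 6, so it rests on single libraries.

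Genes with a lower response in the knockout were named after their values were seen, since the 20 genes of lowest p held none. Mdn1, a very large factor that frees precursors of the large ribosomal subunit, led them. It was at 16, 17.4 and 18.7 and 21.9, 25 and 16.6 CPM in wild type without and with IFN. It fell in the knockout from 22.8, 21.3 and 28.2 to 14.3, 16.3 and 13.4 CPM (log2 -0.72, adjusted p = 0.0103). The knockout groups did not overlap, and the knockout was above wild type in every library before IFN and below it in every library after. Its difference was -1.01 (SE 0.259, adjusted p = 0.513).

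Larp1, which binds the pyrimidine starts of ribosomal protein transcripts, rose in both genotypes. It went from 87.9, 75.8 and 74 to 188, 179.9 and 159 CPM in wild type (log2 1.15) and from 113, 108 and 102 to 158, 184 and 149 CPM in the knockout (log2 0.60). The untreated knockout was above wild type in every library and the IFN groups overlapped, and the difference was -0.54 (SE 0.166, adjusted p = 0.767). Myh9, the heavy chain of non-muscle myosin (-0.81), rose in wild type (adjusted p = 0.0349). The ubiquitin ligase gene Rnf157 (-0.82) rose in both. The thioesterase gene Acot11 (-0.76) fell in the knockout, while the splicing factors Prpf3 (-0.64) and Sart3 (-0.52) were called in neither genotype.

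Alternative activation genes had a median difference of -0.08 over 19 tested, with 8 above 0. The median ran from -0.28 without knockout IFN 4 to 0.08 without knockout untreated 1. At an unadjusted p under 0.05 there were 2 on the lower side (10.5%, against 1.52% of all genes) and none on the higher. Mrc1, the mannose receptor linked to alternative activation, fell in both genotypes. It went from 309, 284 and 295 to 34.2, 56.5 and 32.6 CPM in wild type and from 237, 490.1 and 189 to 9.43, 26.1 and 16 CPM in the knockout, a difference of -1.30 (SE 0.515). Wild type IFN libraries stayed above all knockout IFN libraries. Tfrc, the transferrin receptor, fell in the knockout alone (adjusted p = 0.00657; difference -1.07, SE 0.385). The glutathione peroxidases Gpx1 (0.81) and Gpx4 (0.64) fell in wild type alone, and both transcripts are under 1000 bases long.

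Of 24 macrophage identity genes, 4 had an unadjusted p under 0.05 on the higher side (16.7%, against 3.41%) and none on the lower, with a median of 0.25. The median was 0.133 without knockout untreated 3, 0.437 without wild type IFN 6 and close to 0 in the 13 libraries without Y-linked transcripts. Tyrobp, the signalling adaptor of several myeloid receptors, was at 635, 585 and 588 and 569.8, 620.4 and 771 CPM in wild type. It rose in the knockout from 558, 459 and 419.7 to 1004, 820.5 and 767 CPM (adjusted p = 0.000997; difference 0.73, SE 0.221). The Fc receptor genes Fcer1g (0.61) and Fcgr1 (0.87) rose in both genotypes. The summed level of the list, in which Lyz2 weighs heavily in wild type, was 29280 to 32990 CPM in wild type untreated, 23060 to 30750 in wild type IFN, 17290 to 22760 in knockout untreated and 24180 to 30130 in knockout IFN libraries.

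Other lists had 2 or fewer members at an unadjusted p under 0.05. The median difference was 0.36 over 22 chemokines (0.0862 without wild type untreated 2, 0.723 without wild type IFN 6) and -0.01 over 22 inflammatory cytokines and NF-kB targets, with none at an unadjusted p under 0.05 in either. It was 0.15 over 23 interferon signalling genes, -0.01 over 27 p53 targets and -0.20 over 20 genes of the integrated stress response. Complement genes (0.20 over 18) and lysosome genes (0.05 over 37) each had 2 members at an unadjusted p under 0.05 on the higher side (11.1% and 5.41%, against 3.41% of all genes). Targets of NRF2 and glutathione genes had a median of -0.355 over 25, although the 2 members at an unadjusted p under 0.05, Gpx1 and Gpx4, were on the higher side (8%, against 3.41%). That median ran from -0.553 without wild type IFN 6 to -0.202 without knockout untreated 2, and those of the other lists in this paragraph also moved by over 1.5 times when single libraries were left out.

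Fibroblast markers had the largest median of the lists with at least 10 tested members, 2.21 over 14, with 5 at an unadjusted p under 0.05 (35.7%, against 3.41%) and none called. In wild type 7 of the 14 fell with IFN (against 7.55% of all genes), and in the knockout none was called. Col1a1, a chain of type I collagen, was at 184, 323 and 311 and 39.3, 22.5 and 39.6 CPM in wild type without and with IFN. The knockout held 49, 27.8 and 98.5 CPM and then 8.29, 64.1 and 166 CPM, where the 3 IFN libraries spanned a 20-fold range. Its difference was 3.45 (SE 1.13), that of Col5a1 2.53 (SE 0.931) and that of Postn, a matrix protein, 2.21 (SE 0.8). In bulk libraries fewer cells of a type and less RNA per cell cannot be told apart. Knockout IFN 6 held the most of 12 of the 14 markers, and without it the median was 1.37. In untreated wild type libraries 1, 2 and 3 the markers summed to 866, 922 and 919 CPM beside 36320, 46090 and 46420 CPM of ribosomal protein transcripts, and in untreated knockout libraries to 234, 110.7 and 417 CPM beside 23620, 23330 and 34090 CPM. With IFN they summed to 201, 95.1 and 204 CPM beside 29150, 33670 and 39500 CPM in wild type, and to 44.3, 236 and 804 CPM beside 38670, 26570 and 37840 CPM in the knockout. The untreated genotypes thus differed in the same direction in both sums, while knockout IFN 4, with the lowest marker sum, had the highest ribosomal sum of its group. The part of these cells in the ribosomal values was not tested.

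**Figure D4:**
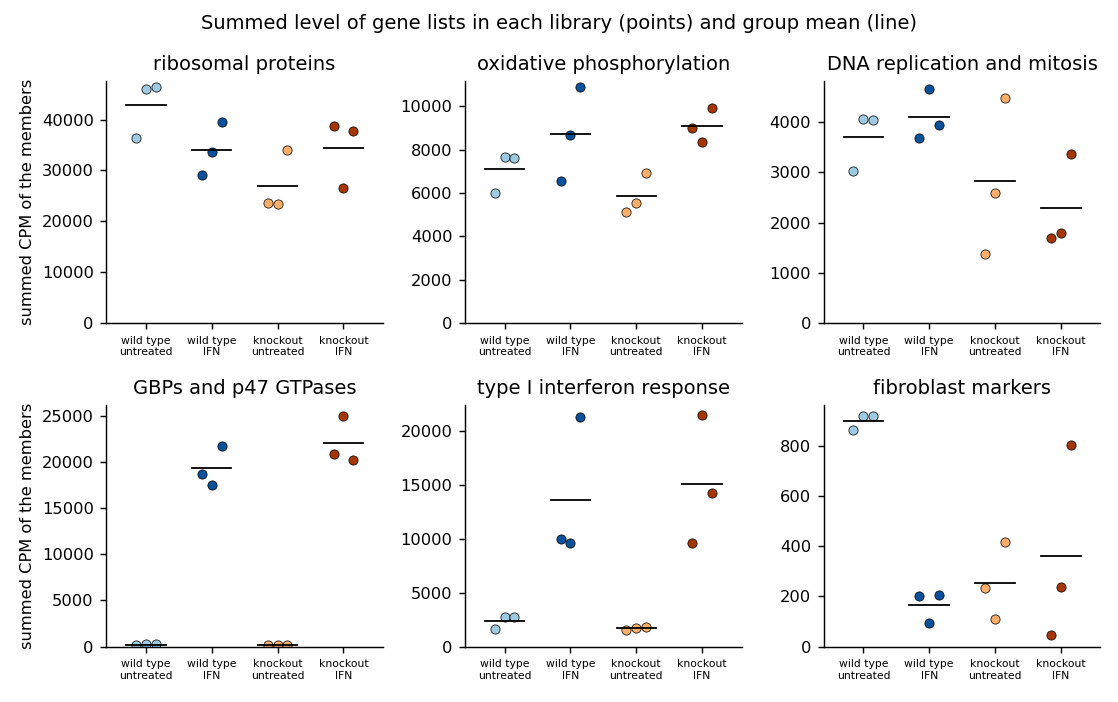
The y axis gives the summed CPM of the tested members of 6 lists, with 1 point per library in order of its number and a line at the group mean; all axes start at 0. Untreated knockout libraries 1 and 2 hold the lowest sums of ribosomal protein transcripts (23620 and 23330 CPM), and wild type IFN 6 and knockout IFN 5 the highest sums of type I genes.

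Transcript length moved with the difference of responses across all genes. Genes with an unadjusted p under 0.05 and a higher response in the knockout had a median transcript of 1113 bases, or 1305.5 without ribosomal protein and mitochondrial genes, those with a lower response one of 3635 bases, and all genes one of 2276 bases. With ribosomal protein and mitochondrial genes left out, the share with such a higher response was 9.15% of 164 genes up to 500 bases and 7.33% of 1786 genes of over 500 to 1000 bases. It was 1.06% of the 1318 genes over 5000 bases. The share with a lower response was 1.22% up to 500 bases and 0.448% at over 500 to 1000 bases, and it reached 4.02% over 5000 bases. Median differences were 0.09 up to 500 bases, 0.12 at over 500 to 1000 bases and -0.15 over 5000 bases. Ribosomal proteins, whose own median length is 713 bases, had a median difference of 0.73. Within the ribosomal proteins the shorter 39 had a median difference of 0.99 and the longer 39 one of 0.52.

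The libraries differed in this balance also within groups. Relative to the mean of the 12 libraries, genes of over 500 to 1000 bases were at a median of -0.14, -0.10 and -0.03 in knockout untreated libraries 1, 2 and 3 and at 0.10, 0.00 and 0.11 in knockout IFN libraries 4, 5 and 6. In wild type they were at -0.01, 0.04 and 0.04 untreated and at -0.10, 0.02 and 0.15 with IFN. Wild type IFN 6 and IFN 4 thus stood at opposite ends of 1 group. A trend on length was also removed from each library, an alternative chosen after seeing the data. It was fitted on genes other than ribosomal protein and mitochondrial ones, so their own values did not shape it. The median of ribosomal proteins was then 0.61, and again no gene was called. What in the samples or the library preparation goes with this balance was not tested.

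**Figure D5:**
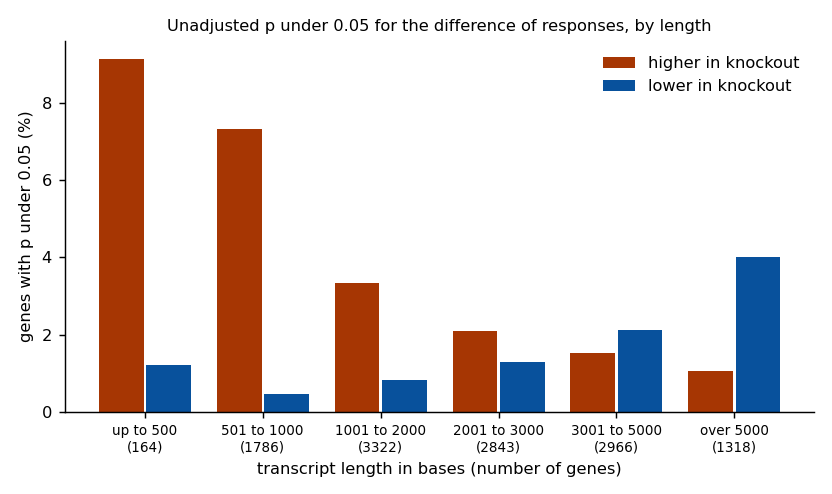
Bars give the percentage of genes with an unadjusted p under 0.05 for the difference of responses in 6 classes of transcript length, without ribosomal protein and mitochondrial genes; red bars are a higher and blue bars a lower response in the knockout, and the number of genes stands under each class. The share of higher responses goes from 9.15% in the shortest to 1.06% in the longest class.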

How the data were processed

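Per gene and library, the authors deposited a table of expected counts and one of TPM. The submitters' processing notes name Bowtie 0.12.8, RSEM 1.2.3 and the mm10 build, and per the labels' protocols the RNA was purified with poly-T beads. Expected counts (21.5% of them not whole) were rounded to whole numbers, and 0 value columns were left unassigned. All 18 libraries, with 1 coefficient for each of 6 groups, were fitted with edgeR 4.0.16 in R 4.3.3 (filterByExpr, TMM, robust quasi-likelihood fit). P-values were adjusted by Benjamini and Hochberg over 12514 genes, with calls made at adjusted p under 0.05. Fold changes and differences are log2 values with standard errors from this fit, and the common coefficient of variation was 0.301.

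The members, gene lists and tests were chosen with earlier results of these data known. The text names the 20 genes of lowest p for the difference that reached a mean of 5 CPM in a group, a selection of list members of lowest p and of preset genes, and genes said to be chosen after seeing their values. Predicted genes and pseudogenes were not named. Lists are described by counts and medians without a test. Alternatives were DESeq2 1.42.0, limma 3.58.1 on the deposited TPM (log2, after adding 1 or 0.1), other filters, normalizations and samples, a block, covariates and each library left out. Transcript lengths and positions come from GENCODE vM21 on GRCm38 (99.97% of tested genes), and promoter sequences from RefSeq on GRCm38.p6. The scripts were tested on simulated data of 12514 genes. Some results are not reported here.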

Additional observations from a re-analysis of the deposited data

How the results depend on the processing

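Of 70 named genes, 65 kept the sign of their difference of responses under all 25 alternatives. The exceptions were Irf1 (-0.18 and -0.19 on log2 TPM plus 1 and plus 0.1, -0.15 in the 13 libraries without Y-linked transcripts), Ciita (-0.0878 on log2 TPM plus 1, -0.13 with Y-linked transcripts as a covariate, -0.0597 with wild type untreated 2 and 3 summed), Cxcl10 (-0.12 with that covariate), H2-Aa (0.17 with the replicate number as a block) and Cxcl9 (-0.45 without wild type untreated 2). With each library left out, the difference ran from -0.45 to 5.17 in Cxcl9, from -0.00523 to 1.45 in Cxcl10, from -0.33 to 0.66 in H2-Aa and from -0.32 to 0.83 in Ciita.

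The difference of responses had 20 calls with DESeq2 and, with each library left out, 0 to 9 (the 9 without wild type IFN 6), and 0 under the other alternatives. The 10 calls between untreated genotypes became 81 with DESeq2, 39 with the Y-linked covariate, 16 with the length offset, 5 with the 2 alike libraries summed and 4 in the 12 libraries alone. With each library left out they numbered between 1 (wild type untreated 2 left out) and 16 (wild type IFN 6 left out). The 8 calls after IFN became 42 with DESeq2, 5 with the covariate, 4 in the 12 libraries alone and 1 in libraries without Y-linked transcripts, with 2 to 8 when each library was left out. The wild type response had 975 calls in the libraries without Y-linked transcripts, which leave 1 wild type IFN library whose spread is assumed to be that of the others. The length offset and the restriction to those libraries were chosen after seeing the data. The cause of these changes was not tested.

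The titles give both genotypes the same numbers, and same-numbered libraries correlated in their deviations at 0.75, 0.07 and 0.57 untreated and at 0.37, 0.04 and 0.27 with IFN. With 2 of the 6 pairs near 0 the numbers were not taken to pair the samples, although 3 of the 6 matched best with their own number. Whether a number marks a shared batch or day is not given. With the number as a replicate block there were 0 calls for the difference of responses, 96 between untreated genotypes and 24 after IFN. The IFN responses could not be fitted with that block, since untreated and IFN libraries share no number. In data simulated at the depth and number of these libraries, few genes changed by less than 4-fold were recovered.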
